A study of Mus musculus with 2 samples.

Results

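The genes described here are 9 regulators and executioners of cell death and of calcium-driven proteolysis, 7 of the Bcl2 family (Bad, Bid, Bax, Bak1, Bcl2, Bcl2l1, Bcl2l2) and the 2 calpain genes Capn1 and Capn2. They were taken by name, as every probe set that the platform's gene table pairs with exactly 1 of these symbols. This gave 13 of the 12418 probe sets on the array, for 8 of the 9 genes. No probe set was paired with Bax alone, so Bax has no value here, and no caspase is among the 9.

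The data came from total RNA of cerebral cortex, 1 array from presenilin conditional double knockout mice (PS cDKO) and 1 array from their controls. All mice were 6 months old. The labels call the animals a conditional double knockout of presenilin and name no alleles, Cre driver, strain, sex or number of animals behind an array, and they do not say what the controls carry. As background, the published mouse line of this name combines a germline deletion of one presenilin with loss of the other in the postnatal forebrain, through a Cre recombinase driven by the CaMKIIα promoter, which is active in excitatory neurons. With 1 array per genotype, no difference below can be set against the variation between animals, and none has a p-value. In bulk cortex, fewer cells of a type and less RNA per cell cannot be told apart.

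The Bcl2 family decides whether the outer mitochondrial membrane is opened. Bax and Bak1 form the pores that release cytochrome c, Bcl2, Bcl2l1 (Bcl-x) and Bcl2l2 (Bcl-w) hold them in check, and BH3-only proteins such as Bad and Bid tip the balance towards death, Bad by occupying the survival proteins and Bid by activating the pore formers once it has been cut. Calpains are cytosolic proteases switched on by calcium. Calpain-1 and calpain-2 are the catalytic chains encoded by Capn1 and Capn2, each works with the small subunit Capns1, and in neurons they cut spectrin and the p35 activator of Cdk5. Much of the control over both families lies in protein cleavage, phosphorylation and location, which an array of RNA does not measure.

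Values are linear array intensities as deposited. For ratios, other than those of summed cell type markers, the PS cDKO array was scaled by 0.034 on the log2 scale. Intensities under a floor of 232, the 40th percentile of both scaled arrays together, were not read as levels. Every log2 ratio is PS cDKO over control after this scaling. Of the 13 probe sets, 9 lay above the floor on both arrays and 4 below it on both, which left 7 of the 9 genes with a ratio. The targeted gene Psen2 gave 94.9 in the PS cDKO and 105 in the control, both under the floor, and gave no check of the genotype.

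Bad, Bak1 and Capn2 had the largest absolute log2 ratios among these genes, and the RefSeq windows around their annotated starts (build GRCm38.p6, 250 bases before to 50 after the start) are shown for that reason. Bad has a pair of annotated starts and the window of the upstream one is given. Capitals mark the GC box GGGCGG and the CCAAT box CCAAT, searched on both strands, so that CCGCCC and ATTGG are marked too.
Bad, chr19:6941611-6941910, plus strand: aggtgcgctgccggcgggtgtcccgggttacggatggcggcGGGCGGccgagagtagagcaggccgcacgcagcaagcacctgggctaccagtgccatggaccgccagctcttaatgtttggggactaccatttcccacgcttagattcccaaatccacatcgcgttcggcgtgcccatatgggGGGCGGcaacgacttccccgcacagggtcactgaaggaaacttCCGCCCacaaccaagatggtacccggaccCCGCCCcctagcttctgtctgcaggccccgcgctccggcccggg
Bak1, chr17:27028578-27028877, minus strand: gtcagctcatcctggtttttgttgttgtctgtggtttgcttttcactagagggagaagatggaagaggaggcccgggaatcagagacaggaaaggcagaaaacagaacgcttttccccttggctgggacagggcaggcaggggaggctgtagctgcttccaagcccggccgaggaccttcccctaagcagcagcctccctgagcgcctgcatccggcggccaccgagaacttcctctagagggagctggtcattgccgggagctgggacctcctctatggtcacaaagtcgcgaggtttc
Capn2, chr1:182517561-182517860, minus strand: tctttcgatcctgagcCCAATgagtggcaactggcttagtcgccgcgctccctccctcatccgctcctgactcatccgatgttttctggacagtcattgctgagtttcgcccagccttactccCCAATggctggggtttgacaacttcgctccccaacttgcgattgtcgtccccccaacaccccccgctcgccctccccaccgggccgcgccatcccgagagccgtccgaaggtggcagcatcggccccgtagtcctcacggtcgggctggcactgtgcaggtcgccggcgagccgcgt

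The Bad window shown held 4 GC boxes and no CCAAT box, and the Capn2 window 2 CCAAT boxes and no GC box. The window of the downstream Bad start, not shown, held no GC box and 1 CCAAT box. The Bak1 window held neither. Of 32851 such windows in the RefSeq table, 35.7% held a GC box and 37.4% a CCAAT box. None of the 3 windows shown held the TATA box TATAAA on either strand, which 13.6% of all windows did.

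The pro-death genes that could be measured were higher in the PS cDKO, the survival genes lay near the control level, and the calpains differed from each other. Over the genes, the median log2 ratio was 0.47 for Bad and Bak1, 0.12 for Bcl2, Bcl2l1 and Bcl2l2, and -0.22 for Capn1 and Capn2, against 0.01 over all 5885 genes measured. The pro-death median thus lay 0.35 above the survival median on the log2 scale, a ratio of 1.27. This difference rests on 2 genes against 3, each from 1 array per genotype. The Bad value came from 1 of its 2 probe sets, and the other, under the floor, had a log2 ratio of -0.0084 read without a floor. Over 9 other ways of processing, the difference between the medians ran from 0.17 to 0.35.

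**Figure D1:**
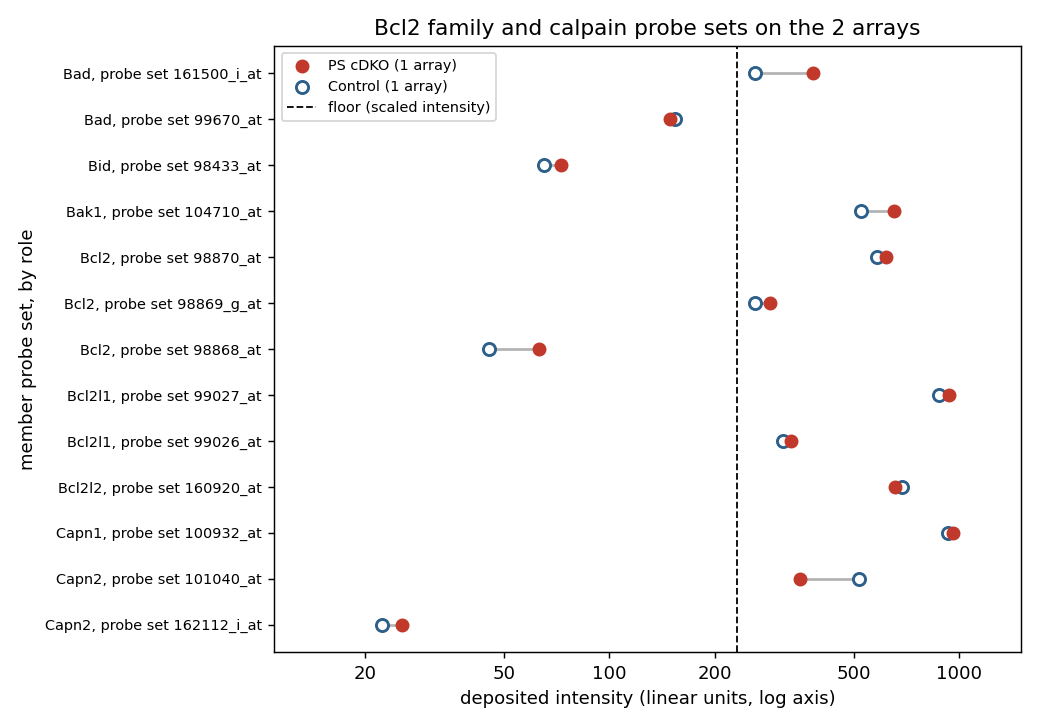
Deposited intensity (linear units on a log axis) of the 13 probe sets of the Bcl2 family and calpain genes, with the PS cDKO array as filled red points and the control array as open blue points, 1 array each; the dashed line is the floor of 232 on the scaled intensity. The widest gaps above the floor are those of Bad probe set 161500_i_at, Bak1 and Capn2 probe set 101040_at, and the second Bad probe set lies below the floor with both arrays nearly on top of each other.

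Among the BH3-only genes, Bad gave the highest ratio of the set. Its probe set 161500_i_at had an intensity of 383 in the PS cDKO, against 260 in the control, a log2 ratio of 0.59 or 1.51-fold. Of all probe sets read on both arrays, 1.82% differed by as much or more in either direction. The control value was not far above the floor of 232.

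The other Bad probe set, 99670_at, did not show this difference. It had an intensity of 149 in the PS cDKO, against 154 in the control, both under the floor. Read without a floor its log2 ratio was -0.0084, so the 2 probe sets of Bad were 0.60 apart on the log2 scale. Among 666 genes with exactly 2 probe sets, 1 above and 1 below the floor on both arrays, 21.2% had probe sets at least that far apart, and their median gap was 0.31. The higher Bad value thus came from 1 probe set, whose identifier carries the suffix _i.

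Bid, the BH3-only protein that links death receptors to mitochondria, was too dim to read. Its single probe set read 72.7 in the PS cDKO, against 64.9 in the control. Both lie far under the floor, and no ratio is given for it.

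Bak1, the pore former of the outer mitochondrial membrane, was higher in the PS cDKO on its single probe set. The intensity was 650 in the PS cDKO, against 524 in the control, a log2 ratio of 0.35 or 1.27-fold. Of all genes measured, 13.6% differed by as much or more in either direction. Bak1 had no further probe set against which this value could be compared.

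The survival genes were measured on 5 probe sets above the floor, and their ratios lay close together. Bcl2 probe set 98870_at had an intensity of 619 in the PS cDKO, against 584 in the control, a log2 ratio of 0.12. Bcl2 probe set 98869_g_at had 288 in the PS cDKO, against 260 in the control, a log2 ratio of 0.18. The probe sets of Bcl2 above the floor thus gave nearly the same small difference, with a gene value of 0.15 on the log2 scale or 1.11-fold. The third Bcl2 probe set, 98868_at, had 63.1 in the PS cDKO, against 45.2 in the control, both under the floor. Read without a floor its log2 ratio was 0.52, and averaged in it brings the gene value to 0.27.

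Bcl2l1 behaved alike on both of its probe sets. Probe set 99027_at had an intensity of 937 in the PS cDKO, against 876 in the control, a log2 ratio of 0.13. Probe set 99026_at had 331 in the PS cDKO, against 314 in the control, a log2 ratio of 0.11. The gap of 0.021 between the probe sets was small: of 749 genes with a pair of probe sets above the floor, 6.28% had one as small, and the median gap was 0.20. As background, Bcl2l1 also yields a short splice form that promotes death, and nothing in the annotation used here says which form a probe set reads.

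Bcl2l2, the survival protein Bcl-w, was the one survival gene on the lower side. Its probe set 160920_at had an intensity of 656 in the PS cDKO, against 686 in the control, a log2 ratio of -0.03. Of all genes measured, 88.6% differed by at least this much, so its 2 values were nearly equal by the standard of these arrays. Across the survival genes the log2 ratio ran from -0.03 to 0.15, within the robust SD of 0.23 across all genes measured.

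The calpain genes went different ways. Capn1 had an intensity of 963 in the PS cDKO, against 928 in the control, a log2 ratio of 0.09 or 1.06-fold. Capn2 probe set 101040_at had 351 in the PS cDKO, against 519 in the control, a log2 ratio of -0.53 or 1.45-fold lower. The Capn2 difference was among the larger ones, since 3.11% of all genes measured differed by as much or more in either direction, whereas 69.7% did so for Capn1.

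A further Capn2 probe set, 162112_i_at, could not be read. It had an intensity of 25.4 in the PS cDKO, against 22.3 in the control, both close to 0 on the scale of these arrays. Averaged in without a floor, it brings the gene value to a log2 ratio of -0.15. Of the genes with 1 probe set above and 1 below the floor, 15.0% had probe sets as far apart as the 0.76 of Capn2.

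**Figure D2:**
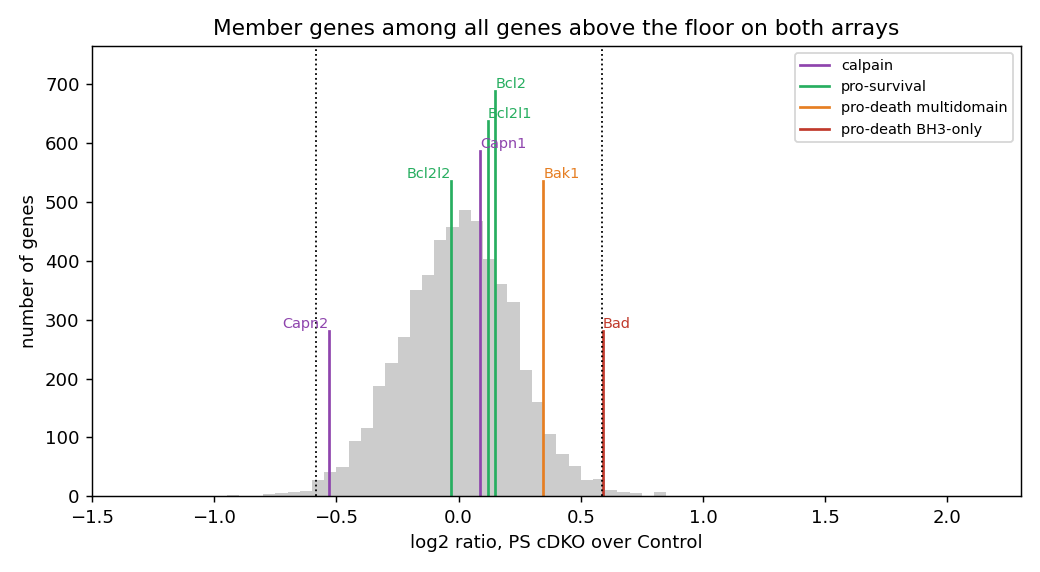
Log2 ratio, PS cDKO over control, of the 7 measured Bcl2 family and calpain genes (coloured lines, by role) over the histogram of all 5414 genes above the floor on both arrays; dotted lines mark 1.5-fold in each direction, and line heights carry no value. Bad at 0.59 and Capn2 at -0.53 lie at opposite edges of the distribution, and the survival genes and Capn1 lie near its centre.

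By size, 1 of the 7 measured genes, Bad, was at least 1.5-fold higher, where 1.12% of all genes measured were. None was at least 1.5-fold lower, where 0.816% of all genes were. At a log2 ratio of 0.32 or more in size, 2 of the 7 were higher (Bad and Bak1) where 8.05% of all genes were, and 1 was lower (Capn2) where 8.36% were. With 7 genes, 1 gene more or less moves these shares widely, and Bad stood at the 1.5-fold line itself. In sign, 5 of the 7 were higher, where 51.9% of all genes were.

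On these arrays the spread (SD) of 1 probe set's ratio on the log2 scale, taken from pairs of probe sets for the same gene, was 0.21, or 1.15-fold, which covers the arrays' technical spread between probe sets and not animals. The log2 ratios of Bcl2, Bcl2l1, Bcl2l2 and Capn1 were all smaller than that, and those of Bad, Bak1 and Capn2 larger.

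Relatives of these proteins, in 9 lists of 92 genes in all, were read in the same way, and 55 genes were measured. None of the 55 was at least 1.5-fold different in either direction. At 0.32 on the log2 scale, 3 were higher and 9 lower, against the 8.05% and 8.36% of all genes given above. Their median log2 ratio was -0.02.

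Further BH3-only and death-promoting relatives differed by small amounts. Of 6 measured, 5 were higher, where 51.9% of all genes were, and the median log2 ratio was 0.16 and none at 0.32 or more. Bnip3, a mitochondrial protein of hypoxia and mitophagy, had an intensity of 280 in the PS cDKO, against 237 in the control, 1.21-fold higher. Its control value lay near the floor. Bnip2 was 1.16-fold higher, again on a suffixed probe set (521 in the PS cDKO, against 459 in the control) while its other probe set read 76.7 in the PS cDKO and 76.5 in the control, below the floor. Bik and Hrk, both BH3-only, were 1.14-fold and 1.10-fold higher. Bok, a relative of Bax and Bak1, had a log2 ratio of -0.11 and was picked with its values in view.

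Further survival genes were split. Of 4 measured, 2 were higher and 2 lower, with a median log2 ratio of 0.04. Mcl1, the short-lived survival protein, had an intensity of 340 in the PS cDKO, against 352 in the control, a log2 ratio of -0.02. Bag1, a co-chaperone that binds Bcl2, was 1.22-fold lower, with 326 in the PS cDKO and 408 in the control. Bcl2l10 and Tmbim1 had log2 ratios of 0.11 and 0.09.

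Caspases, the proteases activated downstream of the mitochondria or of death receptors, were dim, and 4 of the 8 caspase genes of the list found on the array were below the floor on both arrays. The 4 measured ones were all higher, at a median log2 ratio of 0.22, where 51.9% of all genes were higher. Of these, 2 (Casp4 and Casp6) had only a bound. They passed the floor on the PS cDKO array alone, so the floor fixed their direction. The 2 above the floor on both arrays, Casp2 and Casp9, had a median of 0.22 too. Casp9, the initiator activated on the apoptosome, was 1.17-fold higher on its 2 probe sets above the floor. Its probe set 100366_at had 332 in the PS cDKO, against 301 in the control, and its probe set 100367_g_at had 343 in the PS cDKO, against 291 in the control. The remaining Casp9 probe sets went the other way, with 226 in the PS cDKO, against 235 in the control, for the brighter and 70.2 in the PS cDKO, against 88.8 in the control, for the dimmer. Casp2 was also 1.17-fold higher, with 844 in the PS cDKO and 741 in the control. Casp4, an inflammatory caspase, was at least 1.36-fold higher (308 in the PS cDKO, against 226 in the control, where it was under the floor). Casp6 was at least 1.15-fold higher.

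**Figure D3:**
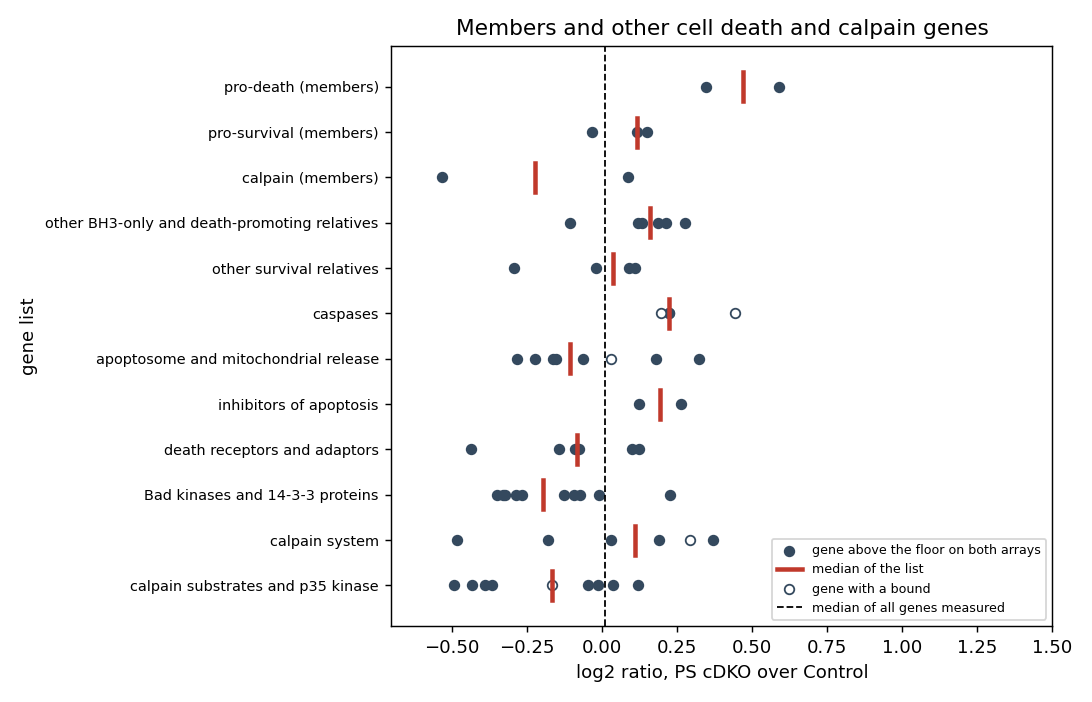
Log2 ratio, PS cDKO over control, of each measured gene in the 3 groups of Bcl2 family and calpain genes and in 9 lists of related genes; filled points are genes above the floor on both arrays, open points genes with a bound, red bars list medians, and the dashed line the median of 0.01 over all genes measured. The medians run from -0.22 for the calpain pair to 0.47 for Bad and Bak1, and the lists for 14-3-3 proteins and for calpain substrates lie mostly on the lower side.

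Genes in the list for the apoptosome and mitochondrial release, which also holds Dffa and Dffb, were split. Of 8 measured, 5 were lower, where 48.1% of all genes were, and the median log2 ratio was -0.11. Diablo, 1 of the 8, which counters inhibitors of apoptosis, had only a bound, at least 1.02-fold higher. The voltage-dependent anion channel Vdac3 was 1.21-fold lower (576 in the PS cDKO, against 717 in the control), and Dffb, the nuclease that cuts DNA in apoptosis, 1.17-fold lower, while its inhibitor Dffa was 1.13-fold higher. Htra2, a protease released from mitochondria, had a log2 ratio of 0.32 on a suffixed probe set (1705 in the PS cDKO, against 1394 in the control), whereas its plain probe set read 164 in the PS cDKO and 200 in the control, below the floor. Apaf1 and Cycs, the partners that build the apoptosome, were below the floor on both arrays.

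Of the inhibitors of apoptosis, Birc2 and Birc3 could be measured and were 1.20-fold and 1.09-fold higher, while Xiap, Birc5 and Birc6 were below the floor on both arrays. The Birc2 value came from a suffixed probe set (553 in the PS cDKO, against 471 in the control). Its plain probe set read 168 in the PS cDKO and 173 in the control, below the floor. Death receptors and adaptors had a median log2 ratio of -0.08 over 6 genes, of which 4 were lower, where 48.1% of all genes were. With 6 genes, 1 gene more or less moves this share widely. Tnfrsf1a, a receptor for tumour necrosis factor, was 1.35-fold lower, with 494 in the PS cDKO and 684 in the control. Cflar, an inhibitor of caspase-8 activation, was 1.10-fold lower, and Traf2 and Tnfrsf1b were 1.09-fold and 1.07-fold higher.

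Bad is held inactive by phosphorylation, by Akt and Pim kinases among others, and by the 14-3-3 proteins that bind the phosphorylated form. Of 10 such genes measured, 9 were lower in the PS cDKO, at a median log2 ratio of -0.19, where 48.1% of all genes were lower. Akt2 had an intensity of 641 in the PS cDKO, against 836 in the control, 1.27-fold lower. Akt1 was 1.22-fold lower, with 855 in the PS cDKO and 1068 in the control. The 14-3-3 genes Sfn and Ywhab had log2 ratios of -0.33 and -0.32, with the PS cDKO value of Sfn, 248, lying near the floor. Pim1 was the one on the higher side, at 1.17-fold, with both of its probe sets higher; it lies outside the rule for named genes and was chosen after its values were seen.

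Around the calpains, the shared small subunit Capns1 had 885 in the PS cDKO and 886 in the control, a log2 ratio of 0.03, and it too was chosen after its values were seen. Of the 6 measured genes of the calpain system other than Capn1 and Capn2, 4 were higher and 2 lower, where 51.9% and 48.1% of all genes were, and the median log2 ratio was 0.11. Capn9 among them had only a bound, at least 1.23-fold higher, and without it the median was 0.03. Capn5 was 1.40-fold lower, with 250 in the PS cDKO and 358 in the control, the PS cDKO value lying near the floor. Capn6, a calpain without protease activity, was 1.29-fold higher on 1 of its 3 probe sets (463 in the PS cDKO, against 366 in the control), and the other 2 were below the floor. Cast, the calpain inhibitor calpastatin, was below the floor on both arrays, with 92.0 in the PS cDKO and 84.2 in the control.

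Substrates of calpain and the genes of the p35 kinase had a median log2 ratio of -0.16, with 7 of 9 lower, where 48.1% of all genes were. That median is the value of Map2, a microtubule-associated protein with only a bound (at least 1.12-fold lower); over the other 8 genes it was -0.21. Sptan1, the spectrin chain cut by calpains, was 1.41-fold lower (834 in the PS cDKO, against 1200 in the control). Cdk5 was 1.35-fold lower, with 338 in the PS cDKO and 466 in the control, and the tau gene Mapt was 1.29-fold lower. The Mapt probe sets had log2 ratios of -0.48, -0.54 and -0.07. Ppp3ca, the catalytic subunit of calcineurin, was 1.31-fold lower. On the higher side were the p35 gene Cdk5r1 and Grin2b, at log2 ratios of 0.12 and 0.04, and Cdk5r2 had -0.01. Cdk5r1, Grin2b and Cdk5r2 were chosen after their values were seen.

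Cell type markers also differed on the same arrays. Their sums and the ratios of the sums use the intensities as deposited, without the scaling. Summed over the probe sets above the floor on at least 1 array, neuronal markers (7 of 7 on the array measured, 5 of them lower) had an intensity of 13383 in the PS cDKO and 16036 in the control, a ratio of 0.83. The sums thus hold probe sets that passed the floor only on the array where they were brighter, so their direction was fixed by the floor. These were Camk2a 93659_at (167 in the PS cDKO, 234 in the control), C1qb 96020_at (657 and 218) and Gfap 94143_at (1413 and 188). The sum for microglia and macrophages (8 of 10 measured, all 8 higher) was 6367 in the PS cDKO and 3922 in the control, a ratio of 1.62, and that for astrocytes (6 of 6 measured, 5 higher) 10599 in the PS cDKO and 7687 in the control, a ratio of 1.38. The astrocyte sum rested on Gfap, the intermediate filament of activated astrocytes: without it the sums were 7091 in the PS cDKO and 7041 in the control, a ratio of 1.01, whereas the microglial ratio was 1.55 without C1qa and the neuronal one 0.87 without Snap25, the genes of the largest difference in those lists. Oligodendrocyte markers (4 of 6 measured) gave a ratio of 0.87, but 1.03 without the myelin gene Mobp, and choroid plexus markers (2 of 3) gave 0.85, but 1.05 without Ttr. Endothelial markers (3 of 6) gave 0.91, and 0.99 without Cldn5; blood markers (2 of 2) gave 0.73, and 0.90 without Hba-a1. The neuronal markers Snap25, Eno2 and Nrgn were well above the floor on both arrays; Aif1 and Lyz2 among the microglial markers and Mog and Cnp among the oligodendrocyte markers were below it on both. The part of these shifts in the values of Bad, Bak1, Capn2 and the related lists was not tested.

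The values of Bak1, Bcl2, Bcl2l1, Bcl2l2 and Capn1 moved little with the processing, but not every alternative could move them. Bak1, Bcl2l2 and Capn1 each had a single plain probe set, above even the 60th percentile floor on both arrays. Only the other scalings could therefore change these genes, and across those Bak1 lay between 1.24-fold and 1.27-fold higher. Over all 9 alternatives, Bcl2l1 lay between 1.06-fold and 1.09-fold and Bcl2 between 1.08-fold and 1.21-fold higher. No measured member had a bound, so dropping bounds could not move any member's value. Bad was 1.22-fold higher with a floor at the 20th percentile or with no floor, where its dim probe set entered the mean, and had no value with a floor at the 60th percentile or without suffixed probe sets. Capn2 was lower in all 9 alternatives, from 1.11-fold with no floor to 1.48-fold with the intensities as deposited. The pro-death median was above the survival median in all 9, by 0.17 to 0.35 on the log2 scale, but under the 60th percentile floor and without suffixed probe sets it was Bak1 alone, and with no floor the dim Bid entered it. Not all 9 bear on this difference. Using the intensities as deposited shifted both medians by the same amount, and dropping bounds changed no member. Both left the difference at 0.35.

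**Figure D4:**
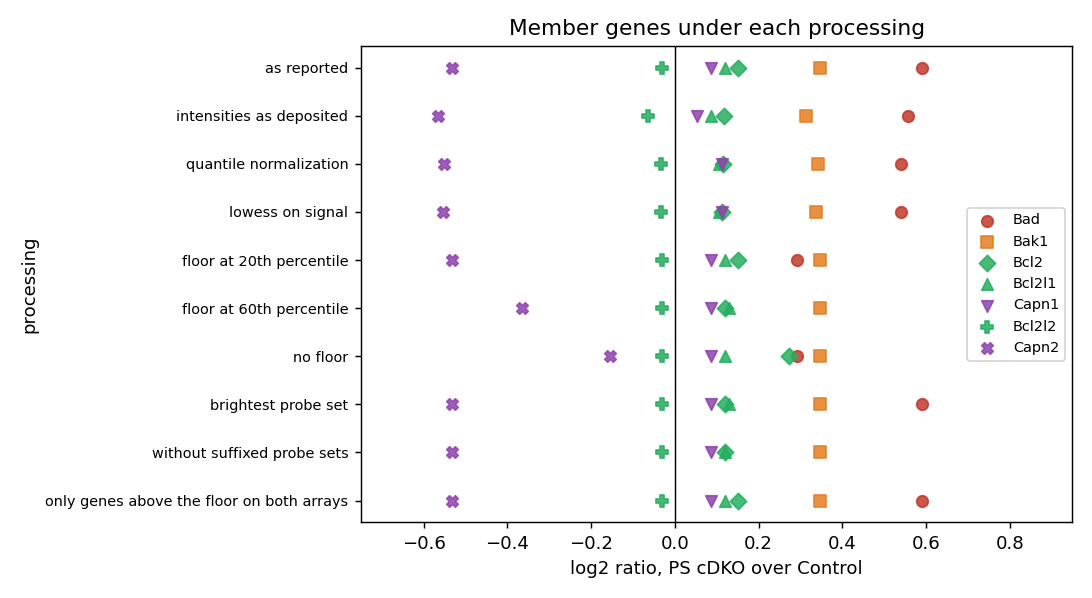
Log2 ratio, PS cDKO over control, of the 7 measured Bcl2 family and calpain genes (1 symbol each, coloured by role) as reported and under 9 other ways of processing, 1 row each; Capn2 with a floor at the 60th percentile is a bound. Bad moves to 0.29 with the lower floor and with no floor and is missing from 2 rows, Capn2 moves to -0.15 with no floor, and Bak1 stays between 0.31 and 0.35.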

How the data were processed

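The deposited table holds 1 linear intensity per probe set and array; the software, summary method, background step and scaling the authors used are not stated in the labels or the table. Some intensities are negative (18 on the PS cDKO array, 13 on the control array), and the median intensity was 305 in the PS cDKO and 300 in the control. Arrays give no count depth, so their number limits the precision. Probe sets were named from the platform's gene table, which can be old: 10829 had 1 symbol, 396 several and 1193 none. Of the 8251 genes with 1 symbol, 8237 matched a RefSeq gene table of GRCm38.p6, used for names and promoter windows. No build is stated for the probe sets.

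Scaling set the median log2 ratio to 0 over the probe sets brighter than the median of each array. The floor was the 40th percentile of both arrays pooled. A gene takes the mean of those of its probe sets that pass the floor on each array. A gene above it on 1 array has a bound. This gave 5885 genes, 5414 without a bound. Counts are by size, past 1.5-fold and past 0.32 on the log2 scale, without a test. Named were all members, up to 4 genes of each related list that differed most in either direction while above the floor on each array, and any at 1.5-fold. Of each marker list up to 3 of the brightest were to be named. Bounds, genes below the floor and genes marked so in the text were named in addition, after their values were seen. The members and lists were chosen with earlier results of these data known. The measuring steps were tested on simulated data. Alternatives were 3 other scalings (lowess span 0.3), 3 other floors, the brightest probe set, no suffixed probe sets (a letter such as _i or _r before _at) and no bounds. Python 3.11.15, numpy 2.4.6, pandas 2.3.3, statsmodels 0.14.6 and matplotlib 3.10.9 were used.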

Additional observations from a re-analysis of the deposited data

How the results depend on the processing

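Leaving out an array was not possible. No paired analysis was possible because there is 1 sample a group. Over 9 alternatives, 133 values were recomputed, of which 117 were unmoved, 16 moved and 0 reversed. The unmoved values include those of Bak1, Bcl2l2 and Capn1 under settings that could not change them. They also include every value with bounds dropped, since no member had a bound. The brightest probe set could not change Bad or Capn2 either, each with 1 probe set above the floor. A reversal could be counted only for a value at least 1.5-fold in size as reported. Bad alone met this, so the 0 says nothing about the other values. The count of genes at least 1.5-fold higher, 1 as reported, was 0 with the intensities as deposited, quantile normalization, lowess, floors at the 20th or the 60th percentile, no floor and no suffixed probe sets. The count at least 0.32 higher on the log2 scale, 2 as reported, was 1 with the intensities as deposited, both other floors, no floor and no suffixed probe sets, and the count at least 0.32 lower, 1 as reported, was 0 with no floor. The log2 ratio of Bad was 0.54 after quantile normalization and after lowess and 0.29 with the lower floor and with no floor. A log2 ratio or median was taken as unmoved when it shifted by less than 0.21 on the log2 scale, the SD from probe sets of the same gene. A count was taken as unmoved when it was equal or changed by at most 1.5-fold. The causes were not tested beyond the probe sets named above. Signals under the floor limit Bid and the dim probe sets named above; 60.9% of all probe sets lay above the floor in the PS cDKO and 59.1% in the control.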

Other observations

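Among the 666 genes with exactly 2 probe sets, 1 above and 1 below the floor on both arrays, 127 had, like Bad, only a suffixed probe set above the floor and a plain one below it. The Bad kinase and 14-3-3 list and the calpain substrate list were the related lists with the lowest medians, at -0.19 and -0.16 on the log2 scale with bounds counted at their limit, and neither held a gene at 1.5-fold.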
